A study of Sus scrofa with 12 samples.

Results

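The pluripotency genes of the inner cell mass were followed through 4 groups of porcine blastocysts: hatched blastocysts from parthenogenetic activation (PA HB), expanded blastocysts from parthenogenetic activation (PA XB), hatched blastocysts recovered in vivo (IVV HB) and expanded blastocysts recovered in vivo (IVV XB). Each group had 3 arrays, and each array carried the amplified RNA of a pool of 5 whole embryos. The genes were chosen by name: DPPA5, MYC, POU5F1, SOX2, KLF4, KLF5, LIN28A, SALL4, ZFP42 and PRDM14. Of these 10 genes, 5 had a named probe on the EMPV1 platform, an oligonucleotide array built for early pig embryos, and they stand among 7777 genes with a symbol. DPPA5 (probes 27378 and 33239) and POU5F1 (probes 15132 and 40552) had 2 probes each, and MYC (1369), LIN28A (10604) and ZFP42 (12883) had 1 each, which makes 7 of 24908 probes. The LIN28A probe is listed under the older symbol LIN28. Both POU5F1 probes are assigned to the same RefSeq transcript, and the MYC and LIN28A probes are assigned to none. No probe is named SOX2, KLF4, KLF5, SALL4 or PRDM14 in the table used here, nor NANOG, so these genes have no value here. The paper itself reports NANOG as significantly lower in PA HB than in IVV HB on its microarray. By quantitative PCR it detected NANOG in IVV HB and not in PA HB.

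PA embryos were made by activating matured oocytes with ionomycin and DMAP and culturing them in mNCSU-23 medium. They carry maternal genomes only and have no father. IVV embryos were fertilized and grew in inseminated gilts. The comparison of PA with IVV therefore joins parthenogenesis, oocyte maturation and culture in vitro, and a different site of production, which cannot be told apart. For PA embryos the labels give collection at 7 (PA HB) and at 5, 6 and 6 (PA XB) in a unit written as hours, while the methods describe culture for days, so these times were not used. IVV HB were collected 5.5 days after insemination and IVV XB after 5, 5 and 6 days. The replicates were separate pools, and pools of whole embryos mix inner cell mass with trophectoderm and hypoblast, so that fewer cells of a type and less RNA per cell cannot be told apart.

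The inner cell mass is the small group of cells inside the blastocyst that gives rise to the fetus, and it stays pluripotent through a network of transcription factors that hold each other active. POU5F1 (OCT4), SOX2 and NANOG form the core of this network in mouse and human, and KLF4, KLF5, PRDM14, SALL4 and ZFP42 (REX1) are linked to it. LIN28A is an RNA-binding protein that blocks maturation of the let-7 microRNAs, MYC is a transcription factor that drives growth together with its partner MAX, and DPPA5 (ESG1 in mouse) is an RNA-binding protein with a KH domain that is known from pluripotent cells and from the germ line. Around the time of hatching the blastocyst leaves the zona pellucida, and the trophectoderm, the outer layer, grows far faster than the inner cell mass in the pig.

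All values are log2 ratios of the embryo sample (Cy5) over a reference RNA pool (Cy3) made from oocytes and embryos of 10 stages, so that 0 means the same signal as in that pool. A ratio compares samples for a given probe, and ratios of different genes are not levels that can be ranked. Array medians lay between -0.09 and -0.02, and replicate arrays correlated at r = 0.814 to 0.897 in PA HB, 0.797 to 0.898 in PA XB, 0.784 to 0.868 in IVV HB and 0.806 to 0.891 in IVV XB. The spread of the ratios over all probes of an array (median absolute deviation) averaged 0.655 in PA HB and 0.641 in PA XB, against 0.428 in IVV HB and 0.429 in IVV XB. For every contrast, limma was fitted once to the 12 arrays and p was adjusted by Benjamini-Hochberg over the 24908 probes. A probe counts as called when this adjusted p is 0.05 or less and the change is 2-fold or more.

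**Figure D1:**
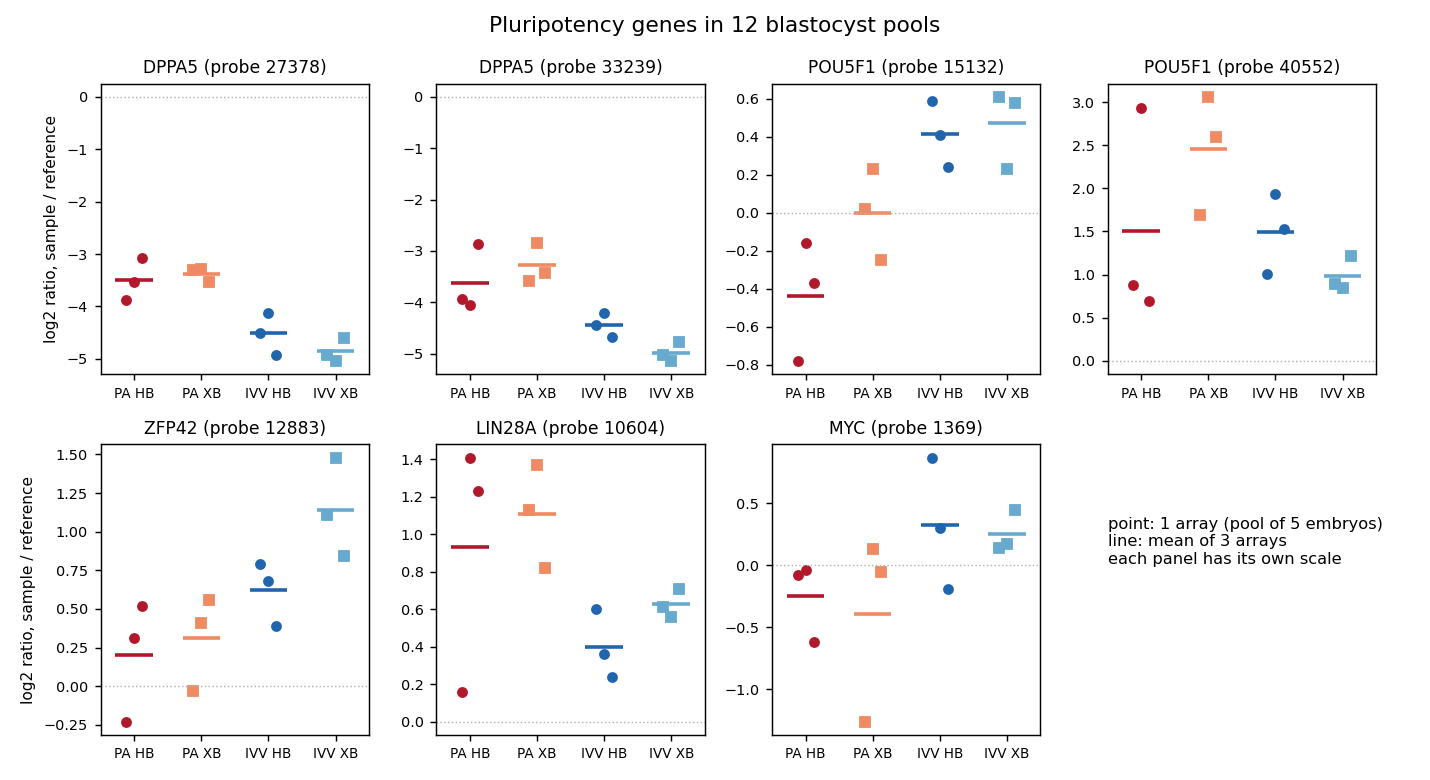
Log2 ratio of sample over reference (y axis, own scale in each panel) for the 7 probes of 5 pluripotency genes in PA HB, PA XB, IVV HB and IVV XB (x axis). Each point is 1 array and each line the mean of 3 arrays. DPPA5 lay between -4.06 and -2.84 in PA arrays and between -5.14 and -4.12 in IVV arrays, while for each of the other 5 probes the range of the PA arrays reached into that of the IVV arrays.

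DPPA5 was the only one of the 5 genes whose difference between PA and IVV embryos passed both limits. It was far below the reference pool in every group and less so in PA embryos. Probe 27378 read -3.87, -3.53 and -3.07 in PA HB and -3.31, -3.28 and -3.53 in PA XB, against -4.50, -4.12 and -4.93 in IVV HB and -4.93, -5.04 and -4.60 in IVV XB. Probe 33239 read -3.93, -4.06 and -2.87 in PA HB and -3.58, -2.84 and -3.42 in PA XB, against -4.44, -4.20 and -4.68 in IVV HB and -5.03, -5.14 and -4.78 in IVV XB. With both probes, every PA array was above every IVV array, a separation of 6 against 6 arrays that 11.7% of all probes had. The probes followed each other over the 12 arrays (r = 0.946, a description), and on a given array they differed by 0.05 to 0.53 on the log2 scale.

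In hatched blastocysts, probe 27378 averaged -3.49 ± 0.40 in the PA HB arrays and -4.51 ± 0.41 in the IVV HB arrays (SD, n = 3 each). That is a log2 fold change of 1.02, or 2.03-fold higher in PA HB (95% confidence interval 0.49 to 1.55, limma adjusted p = 0.0183). Probe 33239 averaged -3.62 ± 0.65 in PA HB and -4.44 ± 0.24 in IVV HB, and its log2 fold change of 0.82 (0.18 to 1.45, limma adjusted p = 0.0885) did not pass. Thus 1 of 7 probes was called between PA HB and IVV HB, where 8.5% of all probes were, and 3 of 7 did not overlap between these groups, where 30% of all probes did not. The call of probe 27378 was lost without PA HB replicate 2 (1.04, limma adjusted p = 0.0563), PA HB replicate 3 (0.81, 0.0683), IVV HB replicate 1 (1.03, 0.0699) or IVV HB replicate 3 (0.82, 0.078), and with the 2 probes of the gene averaged (0.92, 0.0339). Probe 33239 fell to 0.45 without PA HB replicate 3.

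In expanded blastocysts the difference was called with both probes. Probe 27378 averaged -3.37 ± 0.14 in PA XB and -4.86 ± 0.23 in IVV XB, which is 2.8-fold higher in PA XB (log2 fold change 1.49, interval 0.96 to 2.02, n = 3 arrays each, limma adjusted p = 0.00163). Probe 33239 averaged -3.28 ± 0.39 in PA XB and -4.98 ± 0.19 in IVV XB, which is 3.25-fold higher (1.70, interval 1.06 to 2.33, limma adjusted p = 0.00211). These were the 2 called probes of 7, beside 12.6% of all probes, and 6 of 7 probes did not overlap between PA XB and IVV XB, beside 37.2% of all probes. Both calls were also made in each of the 6 fits that left out 1 of these arrays. Over both stages together, PA embryos were higher by 1.25 with probe 27378 (0.88 to 1.63, limma adjusted p = 1.91e-04) and by 1.26 with probe 33239 (0.81 to 1.71, 6.08e-04), and these were 2 called probes of 7, beside 10.9% of all probes.

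**Figure D2:**
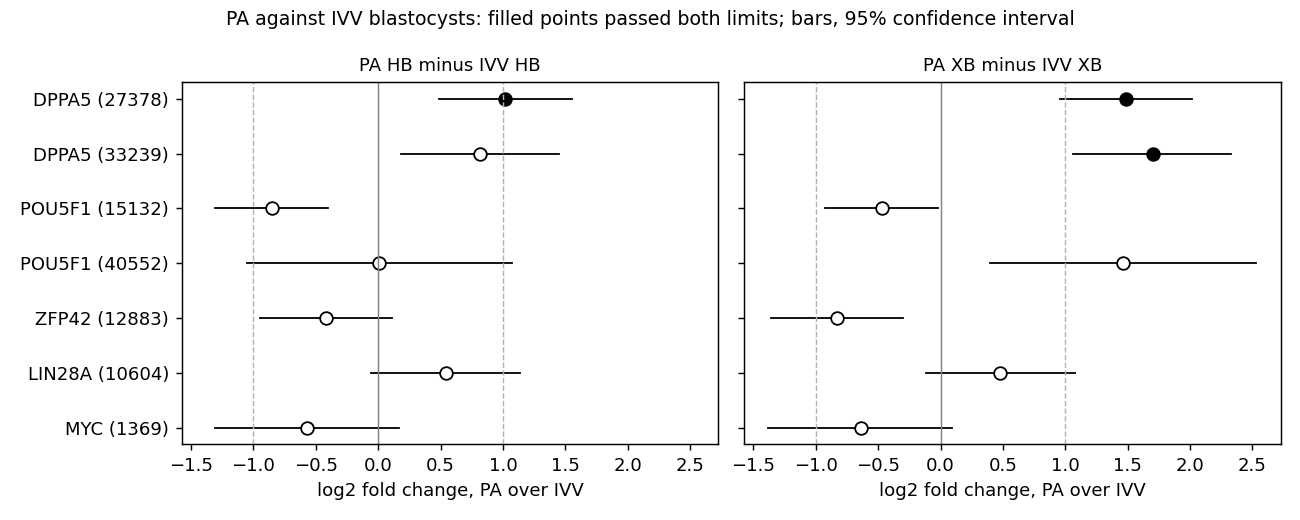
Log2 fold change of PA over IVV embryos (x axis) for the 7 probes, in hatched (left) and expanded blastocysts (right), with 95% confidence intervals of the limma fit. Filled points passed both limits, dashed lines mark a 2-fold change, and only DPPA5 has filled points, 1 in hatched and 2 in expanded blastocysts.

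The place of DPPA5 among the probes of its own array was nearly the same in PA and IVV embryos, at the very bottom of each array. The share of probes with a lower ratio than probe 27378 was 0.213% to 0.57% on the PA arrays and 0.112% to 0.438% on the IVV arrays. For probe 33239 it was 0.128% to 0.61% on PA arrays and 0.185% to 0.466% on IVV arrays. The whole bottom of the distribution was nearer to 0 in PA embryos: the 0.25th percentile of all probes averaged -3.62 in PA HB and -3.56 in PA XB, against -4.58 in IVV HB and -4.83 in IVV XB. These averages are close to those of DPPA5 itself, so the difference in DPPA5 went together with a difference in the lowest ratios of the array as a whole, and the part of this in the DPPA5 result was not tested. The deposited ratios give no signal intensity, and whether the Cy5 signal of these probes was above background is not known.

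The DPPA5 result depended on the scaling of the arrays. With the arrays brought to the same spread, probe 27378 had log2 fold changes of 2.80 in hatched and 3.21 in expanded blastocysts, and probe 33239 had 2.61 and 3.43, all called. This scaling shrinks the ratios of PA arrays, whose spread was wider, relative to those of IVV arrays. It therefore widens such a gap for probes at the bottom of the arrays in general. With quantile normalization, which gives every array the same distribution, probe 27378 had 0.18 (limma adjusted p = 0.757) in hatched and 0.23 (0.593) in expanded blastocysts, and probe 33239 had -0.05 (0.946) and 0.58 (0.175). The direction of a difference in DPPA5 between PA HB and IVV HB thus flips for 1 probe under quantile normalization, and no DPPA5 probe is called there.

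**Figure D3:**
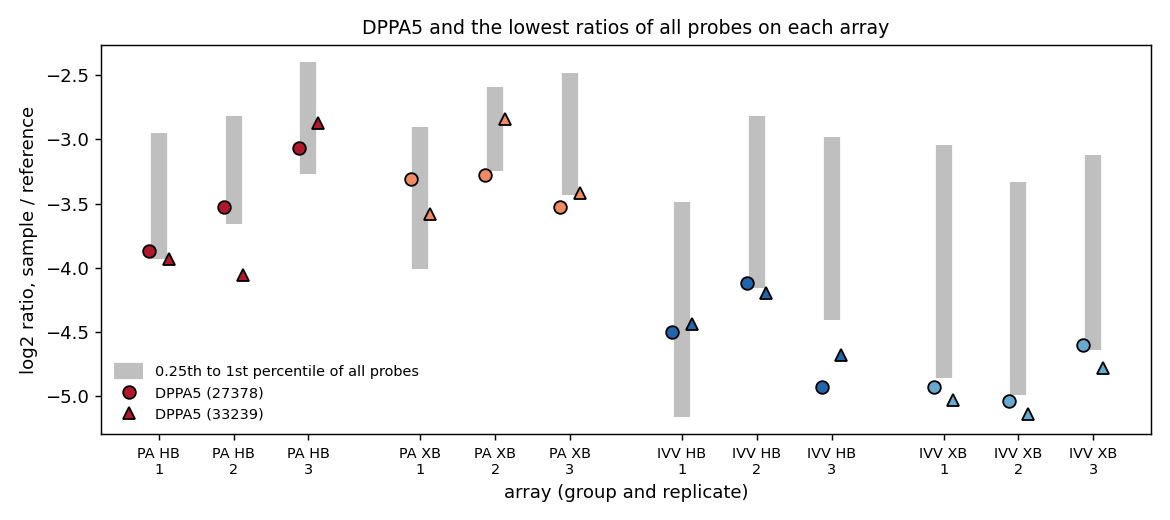
Log2 ratios of the DPPA5 probes (circles, 27378; triangles, 33239) on each of the 12 arrays (x axis), with a grey bar from the 0.25th to the 1st percentile of all 24908 probes of that array. The DPPA5 points lie within the grey bars or below them on all arrays, and the lower ends average -3.62 in PA HB and -3.56 in PA XB, against -4.58 in IVV HB and -4.83 in IVV XB.

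ZFP42, a zinc finger protein that marks naive pluripotency in mouse, was lower in PA than in IVV expanded blastocysts, short of 2-fold. Its probe read -0.23, 0.31 and 0.52 in PA HB and -0.03, 0.41 and 0.56 in PA XB, against 0.79, 0.68 and 0.39 in IVV HB and 1.11, 1.48 and 0.84 in IVV XB. The expanded blastocysts of the 2 origins did not overlap, whereas 1 PA HB array lay above the lowest IVV HB array. ZFP42 averaged 0.31 ± 0.31 in PA XB and 1.14 ± 0.32 in IVV XB, a log2 fold change of -0.83 (interval -1.36 to -0.30, n = 3 arrays each, limma adjusted p = 0.0293). In hatched blastocysts it averaged 0.20 ± 0.38 in PA HB and 0.62 ± 0.21 in IVV HB (-0.42, interval -0.95 to 0.11, limma adjusted p = 0.3).

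Over both stages ZFP42 differed by -0.63 (interval -1.0 to -0.25, limma adjusted p = 0.0145). An adjusted p of at most 0.05 with a lower value in PA, without the limit on the fold change, was reached by 14.6% of all probes over both stages and by 8.98% between PA XB and IVV XB. In its array, ZFP42 stood above 40.2% to 86.1% of probes in PA embryos and above 84.9% to 99.6% in IVV embryos. The difference grew with the scalings: between PA XB and IVV XB it was -1.15 (limma adjusted p = 0.00699) with arrays of the same spread and -1.72 (0.00369) after quantile normalization, both called. As single arrays were left out, the adjusted p of the unscaled ratios between PA XB and IVV XB was 0.0973 (PA XB replicate 1 out), 0.0621 (PA XB replicate 2), 0.0752 (IVV XB replicate 1) and 0.137 (IVV XB replicate 2), with changes of -0.88 to -0.66.

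The 2 probes of POU5F1 disagreed. POU5F1 encodes OCT4, which in the pig is found in trophectoderm as well as inner cell mass around the blastocyst stage. Probe 15132 read -0.78, -0.16 and -0.37 in PA HB and 0.02, 0.23 and -0.25 in PA XB, against 0.59, 0.41 and 0.24 in IVV HB and 0.61, 0.23 and 0.58 in IVV XB. All PA HB arrays were below all IVV HB arrays. Probe 40552 read 0.88, 2.93 and 0.69 in PA HB and 1.69, 3.06 and 2.60 in PA XB, against 1.01, 1.93 and 1.53 in IVV HB and 0.89, 0.85 and 1.22 in IVV XB. With this probe all PA XB arrays were above all IVV XB arrays, while PA HB spread on both sides of IVV HB, with replicate 2 far above the other PA HB arrays. Over the 12 arrays the probes did not follow each other (r = -0.0728, a description), and they differed by 0.27 to 3.09 on an array, with a median of 1.40.

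Probe 15132 averaged -0.44 ± 0.31 in PA HB and 0.41 ± 0.18 in IVV HB. The log2 difference was -0.85 (interval -1.31 to -0.40, n = 3 arrays each, limma adjusted p = 0.0209) and thus within 2-fold. A lower value at this adjusted p limit alone was found for 5.84% of all probes. In expanded blastocysts it averaged 0.00 ± 0.24 in PA XB and 0.47 ± 0.21 in IVV XB (-0.47, interval -0.93 to -0.02, limma adjusted p = 0.138), and over both stages it differed by -0.66 (-0.98 to -0.34, 0.00436). Its values changed little with scaling, at -0.88 in hatched blastocysts under both scalings. The adjusted p rose above 0.05 when PA HB replicate 1 (-0.68, 0.0513) or IVV HB replicate 1 (-0.76, 0.107) was left out.

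Probe 40552 averaged 1.50 ± 1.24 in PA HB and 1.49 ± 0.46 in IVV HB (log2 fold change 0.01, interval -1.05 to 1.07, limma adjusted p = 0.994). In expanded blastocysts it averaged 2.45 ± 0.69 in PA XB and 0.99 ± 0.21 in IVV XB, a log2 fold change of 1.46 (interval 0.40 to 2.53, n = 3 arrays each, limma adjusted p = 0.0526) that missed the limit. It was called without PA XB replicate 1 (1.84, limma adjusted p = 0.0231), with array weights (1.62, 0.0105), and, at the same 1.46, with the replicate number as a block (0.0137), among the more variable 50% of probes (0.0221) and in a fit of the compared groups alone (0.0145). This probe sat at the top of the arrays, above 88.9% to 97.9% of probes in PA embryos and above 96.8% to 99.2% in IVV embryos. The 98th percentile of all probes averaged 2.80 in PA HB and 2.56 in PA XB, against 1.39 in IVV HB and 1.00 in IVV XB, and the part of this wider top in the difference was not tested. After quantile normalization the difference was -1.02 in hatched and 0.02 in expanded blastocysts. With the 2 probes averaged, POU5F1 had -0.42 (limma adjusted p = 0.425) in hatched and 0.50 (0.294) in expanded blastocysts, so no direction can be given for the gene.

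LIN28A was on average higher in PA embryos, with no call. It read 0.16, 1.41 and 1.23 in PA HB and 1.13, 1.37 and 0.82 in PA XB, against 0.60, 0.36 and 0.24 in IVV HB and 0.61, 0.56 and 0.71 in IVV XB. All PA XB arrays were above all IVV XB arrays, and PA HB replicate 1 was below every IVV array. The log2 fold change was 0.54 (interval -0.06 to 1.14, limma adjusted p = 0.239) between PA HB and IVV HB, 0.48 (-0.12 to 1.08, 0.255) between PA XB and IVV XB and 0.51 (0.08 to 0.93, 0.0673) over both stages. Without PA HB replicate 1 it was 0.92 (0.0138) in hatched blastocysts and 0.70 (0.00211) over both stages, still within 2-fold. With arrays of the same spread it was 0.24 and 0.13 in the hatched and expanded comparisons, and after quantile normalization 0.22 and 0.10.

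MYC was on average lower in PA embryos, with no call. It read -0.08, -0.04 and -0.62 in PA HB and -1.26, 0.13 and -0.05 in PA XB, against 0.87, 0.30 and -0.19 in IVV HB and 0.14, 0.17 and 0.45 in IVV XB. PA XB replicate 1 was the lowest of the 12 arrays, and the expanded blastocysts of the 2 origins were separated by only 0.13 against 0.14 at their nearest arrays. The log2 fold change was -0.57 (interval -1.31 to 0.17, limma adjusted p = 0.316) between PA HB and IVV HB, -0.64 (-1.38 to 0.09, 0.214) between PA XB and IVV XB and -0.61 (-1.13 to -0.09, 0.0748) over both stages. The expanded comparison had -0.21 without PA XB replicate 1, and the hatched one -0.30 without IVV HB replicate 1. Over both stages the adjusted p ran from 0.0407 to 0.18 as single arrays were left out.

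**Figure D4:**
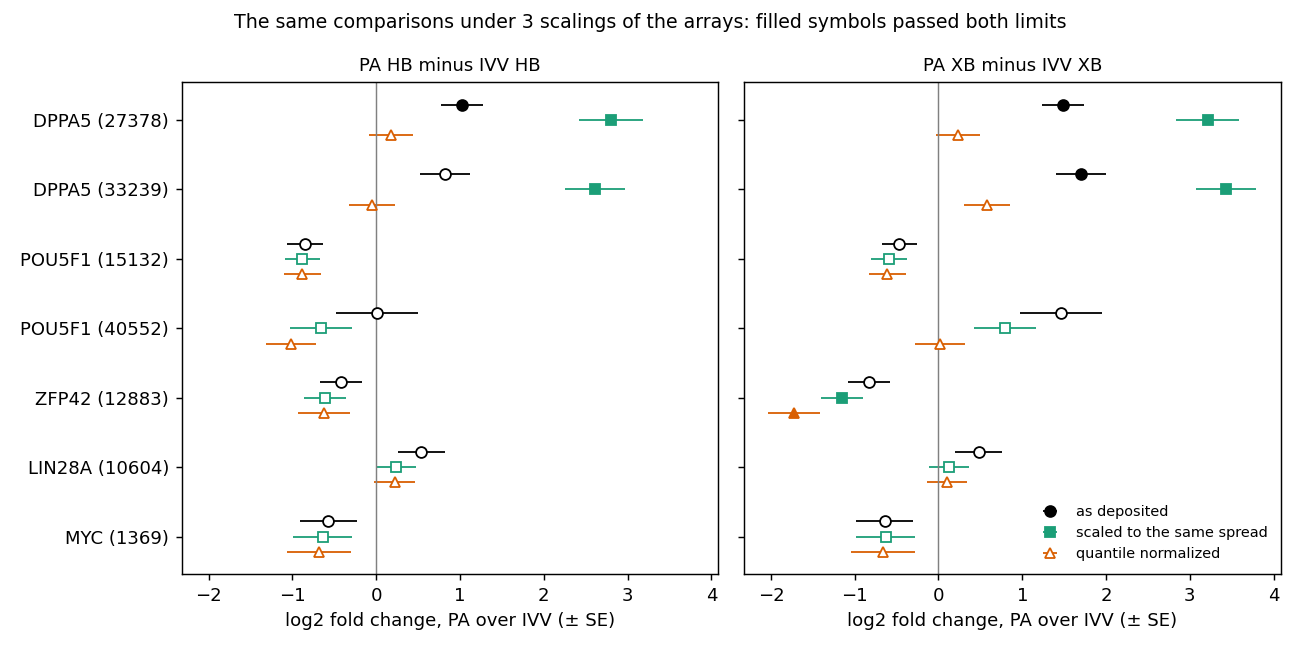
Log2 fold change of PA over IVV embryos with its SE (x axis) for the 7 probes in hatched (left) and expanded blastocysts (right), with the ratios as deposited (black circles), scaled to the same spread (green squares) and quantile normalized (orange triangles); filled symbols passed both limits. DPPA5 ranges from 3.43 to -0.05, POU5F1 probe 15132 stays between -0.88 and -0.47 and MYC between -0.68 and -0.57, and ZFP42 is called in expanded blastocysts under both scalings.

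Hatching, the change between the expanded and the hatched stage, was not accompanied by a called change in any of the 7 probes. Between IVV HB and IVV XB 0 of 7 were called, beside 0.149% of all probes, and limma gave an unadjusted p of at most 0.05 for 0 of 7, beside 6.36% of all probes. Between PA HB and PA XB it was again 0 of 7, beside 0.00803% of all probes, with 0 of 7 at the unadjusted limit, beside 6.35%. Between IVV HB and IVV XB, ZFP42 differed by -0.53 (interval -1.05 to 0.00, limma adjusted p = 0.79) and DPPA5 probe 33239 by 0.54 (-0.09 to 1.18, 0.902), and these were the 2 probes of 7 whose IVV stages did not overlap, beside 12.1% of all probes. Between PA HB and PA XB all 7 probes overlapped, where 9.58% of all probes did not. There, POU5F1 probe 40552 differed by -0.95 (-2.02 to 0.11, 0.823) and probe 15132 by -0.44 (-0.89 to 0.02, 0.8).

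The hatching change was also compared between PA and IVV embryos, and the difference was called for 0 of 7 probes (0.00803% of all probes), with 0 of 7 at an unadjusted p of at most 0.05 in limma, beside 4.93%. The widest differences were those of POU5F1 probe 40552 (-1.45, interval -2.96 to 0.05, limma adjusted p = 0.994) and DPPA5 probe 33239 (-0.88, -1.78 to 0.02, 0.994). The intervals of these differences reach beyond 2-fold, so a change of that size is not excluded by these arrays. The remaining 5 probes had differences between -0.46 and 0.41.

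Other genes of the pluripotent network were counted in the same way. Of 23 further genes of this network or of the inner cell mass with a probe, among them ESRRB, NR5A2, TBX3, UTF1, OTX2, GDF3 and DNMT3B, 0 were higher and 0 lower between PA HB and IVV HB, where 5.76% of all 7777 genes were higher and 5.07% lower. Between PA XB and IVV XB, 0 were higher and 1 was lower, where 8.78% of all genes were higher and 7.42% lower. That gene was SPIC, an ETS family transcription factor, with a log2 fold change of -1.16 (limma adjusted p = 0.0121, SE 0.29), and it was not called without IVV XB replicate 2. In hatched blastocysts 1 gene was lower without PA HB replicate 1, without IVV HB replicate 2 or with array weights. The median over the 23 genes was -0.10 in both comparisons, and over all genes 0.01 in hatched and 0.02 in expanded blastocysts. NANOG, which the paper reports as lower in PA HB, has no named probe and is not among these genes.

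The lists around the members went different ways. Beside every list count below stand the same shares of all genes. They are 5.76% higher and 5.07% lower in hatched blastocysts, and 8.78% higher and 7.42% lower in expanded ones. Among 39 genes that MYC is known to activate, 13 were lower in PA HB relative to IVV HB (33.3%, against 5.07% of all genes) and 1 was higher. Between PA XB and IVV XB, 6 were lower (15.4%, against 7.42%) and 0 higher. EIF2S1, a subunit of the translation initiation factor eIF2, read -1.68, -2.27 and -1.56 in PA HB against 0.44, -0.02 and -0.07 in IVV HB, and -1.24, -1.77 and -1.66 in PA XB against 0.25, 0.57 and 0.29 in IVV XB. Every PA array was thus well below every IVV array, with log2 fold changes of -1.96 (limma adjusted p = 9.20e-04, SE 0.23) in hatched and -1.93 (SE 0.23, 3.22e-04) in expanded blastocysts. A full separation of the origins, in either direction, was found for 11.7% of all probes.

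NOLC1, a nucleolar protein of ribosome assembly, had -1.09 (limma adjusted p = 0.00394, SE 0.19) in hatched and -0.19 (0.524) in expanded blastocysts. EIF4E, which binds the mRNA cap, had a probe at -1.36 (limma adjusted p = 0.00151) and another at 0.75 (0.0901) in hatched blastocysts, and PA2G4, a growth-associated nucleolar protein, had probes called both ways (-1.94 and 1.19), the higher of which lost its call under both scalings or without PA HB replicate 2, PA HB replicate 3, IVV HB replicate 1 or IVV HB replicate 3. NOLC1 was not called under either scaling or without IVV HB replicate 1. The median of the 39 genes was -0.30 in hatched and -0.19 in expanded blastocysts. The count of lower genes in hatched blastocysts was 5 without IVV HB replicate 1 and 8 with the probes of a gene averaged, and that in expanded blastocysts was 3 without IVV XB replicate 2. Counts over all genes fell as well. Of all genes, 394 were lower in hatched blastocysts, 168 without IVV HB replicate 1 and 236 with averaged probes. In expanded blastocysts 577 were lower, and 373 without IVV XB replicate 2. From its microarray comparison with IVV HB, the paper predicted the factors MYC and MYCN to be inhibited in PA HB. A link between the counts given here and MYC was not tested.

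Of 8 genes that MYC is known to repress, 1 was higher in PA HB relative to IVV HB (12.5%) and 0 lower, and 2 were higher (25%) and 1 lower (12.5%) in PA XB relative to IVV XB. TXNIP, an inhibitor of thioredoxin and of glucose uptake, was higher in both (1.31, SE 0.38, limma adjusted p = 0.0369 in hatched and 1.93, SE 0.38, 0.00387 in expanded blastocysts). In hatched blastocysts it was not called after quantile normalization or when any 1 of the 6 PA HB and IVV HB arrays was left out. In expanded blastocysts 1 of these genes was higher under either scaling or without PA XB replicate 3, IVV XB replicate 1 or IVV XB replicate 3, and 0 were lower under either scaling. Of 20 genes of the MYC network itself, meaning partners, cofactors and regulators of the MYC protein, 2 were higher (10%) and 0 lower in PA HB, and 3 higher (15%) and 0 lower in PA XB. KAT5, an acetyltransferase, had 2.08 (limma adjusted p = 0.0221, SE 0.53) and 2.53 (SE 0.53, 0.00527), AURKA, a mitotic kinase that stabilizes MYC family proteins, had 1.14 and 1.37 with its called probe, and GSK3B, a kinase that marks MYC for breakdown, had 1.02 (0.0112) and 1.14 (0.00151) with its 2 probes in expanded blastocysts. The called AURKA probe stood above 2.87% to 12.9% of probes on PA arrays and 1.07% to 1.62% on IVV arrays. Its other probes, 301 and 4371, were not called. They averaged -0.92 and -0.69 in PA HB against -1.33 and -1.27 in IVV HB, and -0.98 and -1.25 in PA XB against -1.50 and -1.49 in IVV XB. MAX, the partner of MYC, was not called. In hatched blastocysts 0 genes of the network were higher without PA HB replicate 2, PA HB replicate 3, IVV HB replicate 1 or IVV HB replicate 3, and 1 was higher under either scaling. In expanded blastocysts 3 were lower with array weights and 2 without PA XB replicate 1 or IVV XB replicate 3.

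Pathways upstream of the network showed single genes. In the LIN28 and let-7 list of 10 genes, 1 was higher (10%) and 1 lower (10%) in PA HB relative to IVV HB, and 2 were higher (20%) and 1 lower (10%) in PA XB relative to IVV XB. DGCR8, a partner of Drosha in microRNA processing, was lower with probe 32461, by -1.23 (limma adjusted p = 0.00371, SE 0.21) in hatched and -1.75 (SE 0.21, 3.04e-04) in expanded blastocysts. Its other probe, 36570, was short of 2-fold at both stages and not called. It averaged -0.55 in PA HB against 0.22 in IVV HB, and -0.43 in PA XB against -0.04 in IVV XB. TARBP2, a partner of Dicer, was called higher with 1 of 8 probes (1.80 and 2.10), while the others lay between -0.14 and 0.83 in hatched and between -0.34 and 0.59 in expanded blastocysts. That probe was not called in hatched blastocysts under either scaling, with robust moderation, with averaged probes or without PA HB replicate 2, PA HB replicate 3, IVV HB replicate 1 or IVV HB replicate 3, which left 0 genes higher. In expanded blastocysts it was not called after quantile normalization or without PA XB replicate 2, PA XB replicate 3 or IVV XB replicate 2, which left 1 gene higher, and averaged probes left 0. Of 12 genes of the FGF and ERK pathway, 1 was higher (8.33%) and 2 lower (16.7%) in hatched, and 1 higher (8.33%) and 1 lower (8.33%) in expanded blastocysts. GRB2, an adaptor of receptor kinases, was lower in both, with -1.93 (limma adjusted p = 0.00312, SE 0.32) and -1.03 (SE 0.32, 0.0344). In expanded blastocysts it was not called under either scaling, in the fit of the compared groups alone, or without PA XB replicate 2, PA XB replicate 3 or any 1 of the IVV XB arrays. In hatched blastocysts 1 gene was lower when any array other than PA HB replicate 1 was left out, and 0 were higher without PA HB replicate 2 or IVV HB replicate 1.

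Of 10 genes of the LIF and JAK-STAT3 pathway only IL6 was called, higher in PA HB relative to IVV HB (1.26, SE 0.24, limma adjusted p = 0.00623) and lower in PA XB relative to IVV XB (-1.40, SE 0.24, 0.00192). IL6 is a cytokine that signals through the receptor subunit IL6ST, which LIF also uses. It read 0.33, 0.23 and 0.06 in PA HB against -0.53, -1.21 and -1.43 in IVV HB, and 0.80, 0.93 and 0.29 in PA XB against 1.98, 2.11 and 2.13 in IVV XB. IVV XB arrays were thus the highest and IVV HB arrays the lowest, with PA arrays between them. Among 19 chromatin partners of OCT4 and SALL4, 2 were higher and 1 lower in PA HB, and 2 higher and 0 lower in PA XB. These were GATAD2B (1.10 and 1.02) and SMARCE1 (1.32 and 1.19 with 1 of its 2 probes), subunits of the NuRD and BAF complexes, and MBD3, a NuRD subunit, at -1.52 in hatched blastocysts and 0.00 in expanded ones. GATAD2B was not called at either stage under the scalings or with array weights, nor without PA HB replicate 1, PA HB replicate 2 or IVV HB replicate 1 in hatched and without PA XB replicate 2 or IVV XB replicate 2 in expanded blastocysts. SMARCE1 was not called in hatched blastocysts without IVV HB replicate 1 or in expanded ones with averaged probes.

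A further list joined genes with an atypical KH domain to members of the maternal subcortical complex, and 3 of its genes had a probe. The KH domain is what links this list to DPPA5. OOEP, a KH-domain protein of the oocyte, read -3.89, -3.30 and -3.14 in PA HB and -3.67, -2.69 and -3.06 in PA XB, against -5.59, -4.31 and -4.63 in IVV HB and -5.64, -5.48 and -4.94 in IVV XB. Like DPPA5 it was at the bottom of every array, and all PA arrays were above all IVV arrays, a separation that 11.7% of all probes had. It was higher by 1.40 (limma adjusted p = 0.0195, SE 0.34) in hatched and by 2.21 (SE 0.34, 0.00109) in expanded blastocysts. NLRP2, a member of that complex, had 0.95 (0.0914) and 1.51 (0.0083), and NLRP5 was not called. OOEP was not called in hatched blastocysts after quantile normalization or without PA HB replicate 2, PA HB replicate 3 or IVV HB replicate 1, which left 0 of 3 genes called.

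Oocyte markers as a group lay far below the reference and nearer to it in PA embryos, as DPPA5 did. The median ratio over 17 of them was -2.38 to -2.07 on the PA HB arrays and -2.34 to -1.89 on the PA XB arrays, against -3.42 to -2.78 on the IVV HB arrays and -3.37 to -3.08 on the IVV XB arrays. Between PA HB and IVV HB 9 were higher and 0 lower (52.9%, against 5.76% of all genes), with a median change of 1.00, and between PA XB and IVV XB 13 were higher and 0 lower (76.5%, against 8.78%), with a median of 1.44. In hatched blastocysts the count became 14 when PA HB replicate 1 was left out, 3 or 4 when it was PA HB replicate 2 or 3, and 1 when it was IVV HB replicate 1. After quantile normalization it was 5 in hatched and 8 in expanded blastocysts, and with arrays of the same spread it was 16 in hatched blastocysts. Over all genes, 448 were higher in hatched blastocysts. That number was 198 or 222 without PA HB replicate 2 or 3, 123 without IVV HB replicate 1 and 175 after quantile normalization. The lowest ratios of all probes were nearer to 0 in PA embryos too. Their 1st percentile averaged -2.72 in PA HB and -2.66 in PA XB, against -3.10 in IVV HB and -3.16 in IVV XB. The probes of the oocyte marker NPM2 went both ways. Probe 41193 was lower in PA (-1.07 against -0.56 in hatched, -1.51 against -0.65 in expanded blastocysts), and probes 6541, 34697 and 42826 were higher. The part of the low ratios in the marker counts, and that of oocyte transcripts in the DPPA5 difference, were not tested.

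The other cell types of the blastocyst were measured beside the pluripotency genes. The median ratio over 12 trophectoderm markers was 0.26 to 0.51 in PA HB and 0.17 to 0.32 in PA XB, against 0.42 to 0.44 in IVV HB and 0.14 to 0.28 in IVV XB. Over 12 hypoblast markers it was -0.54 to -0.05 in PA HB and -0.33 to 0.00 in PA XB, against -0.26 to -0.07 in IVV HB and -0.45 to -0.22 in IVV XB. For both lists the ranges of PA and IVV arrays overlapped at either stage. Single markers moved: 1 trophectoderm gene was higher (8.33%, against 5.76% of all genes) and 2 lower (16.7%, against 5.07%) in PA HB relative to IVV HB. In PA XB relative to IVV XB 5 were higher (41.7%, against 8.78%) and 2 lower (16.7%, against 7.42%), DAB2 having probes of both kinds (1.39 and -1.45). In expanded blastocysts 3 were higher under either scaling or without IVV XB replicate 1 or IVV XB replicate 2, and 1 was lower without IVV XB replicate 2. In hatched blastocysts 0 were higher under either scaling and 2 without PA HB replicate 2 or IVV HB replicate 2.

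Of the hypoblast markers, 3 were higher (25%, against 5.76% of all genes) and 1 lower (8.33%, against 5.07%) in PA HB. In PA XB 5 were higher (41.7%, against 8.78%) and 0 lower (against 7.42%). GATA6, a transcription factor of the early hypoblast, read 2.19, 2.43 and 2.99 in PA HB and 2.18, 3.52 and 1.91 in PA XB, against 0.03, 0.89 and 0.53 in IVV HB and 0.31, 0.13 and 0.50 in IVV XB. All PA arrays were above all IVV arrays, a separation that 11.7% of all probes had. The log2 fold changes were 2.06 (limma adjusted p = 0.00448, SE 0.36) in hatched and 2.23 (SE 0.36, 0.00151) in expanded blastocysts. GATA6 stood above 96.7% to 99.4% of probes on PA arrays and 57.4% to 94.8% on IVV arrays. The 98th percentile of all probes averaged 2.80 in PA HB and 2.56 in PA XB, against 1.39 in IVV HB and 1.00 in IVV XB. The part of this wider top in the GATA6 difference was not tested. Of 10 markers of cumulus and granulosa cells, which surround the oocyte, 1 was higher in PA HB (10%) and 2 in PA XB (20%), with 0 to 2 and 0 to 2 as single arrays were left out. The higher hypoblast genes in hatched blastocysts were 1 after quantile normalization. The part of these markers in the differences of the pluripotency genes was not tested.

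The calls above count against a background that depends on scaling. With the ratios as deposited, 1213 probes were called higher and 905 lower between PA HB and IVV HB, and 1754 higher and 1372 lower between PA XB and IVV XB. With arrays of the same spread there were 1187 higher and 685 lower in hatched, and 1935 higher and 1092 lower in expanded blastocysts. After quantile normalization there were 445 higher and 587 lower in hatched, and 1275 higher and 1351 lower in expanded blastocysts.

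**Figure D5:**
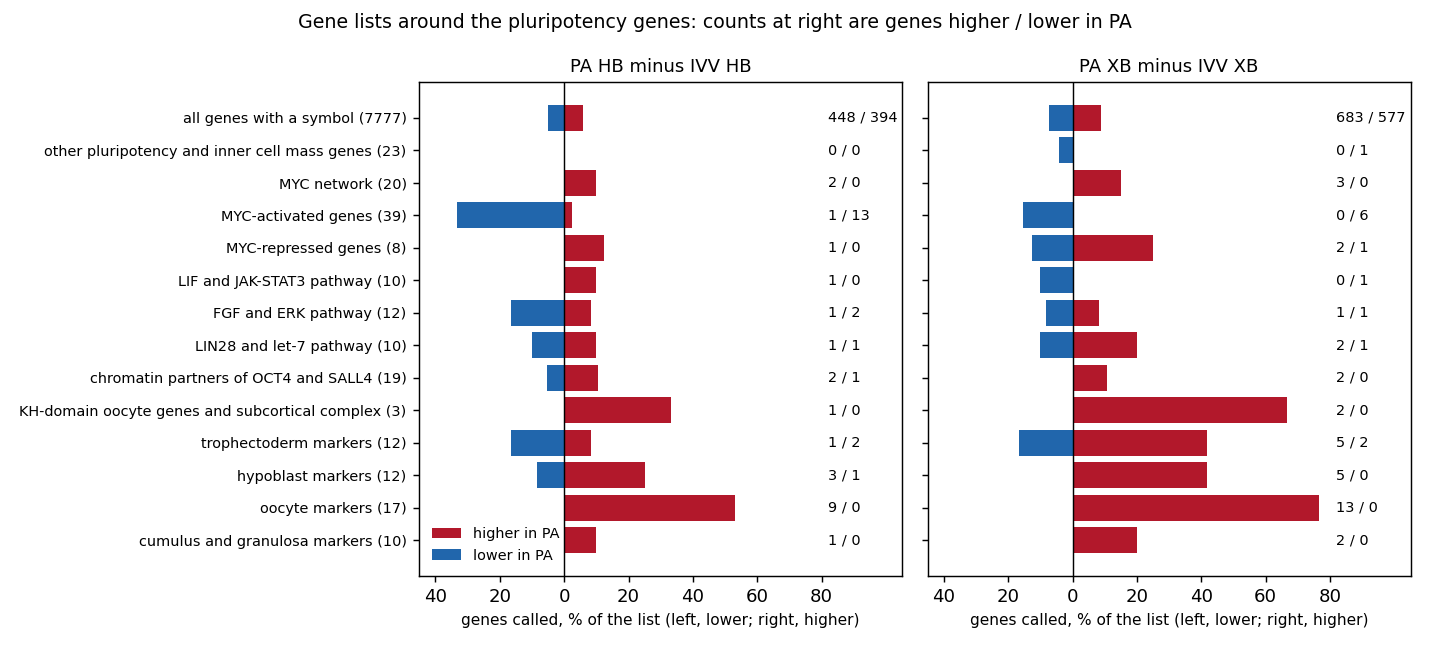
Share of the genes of each list (number of genes in parentheses) called lower (left, blue) or higher (right, red) in PA than in IVV embryos, in percent, for hatched (left panel) and expanded blastocysts (right panel); the numbers give genes higher and lower. Of 23 other pluripotency genes 0 were called in hatched blastocysts, while 13 of 39 MYC-activated genes were lower and 9 of 17 oocyte markers higher.

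The named genes most like each probe over the 12 arrays were found by Pearson's r, as a description. The arrays share the reference pool, and a difference between origins raises r for any genes that differ alike. DPPA5 probe 27378 was most like LOC100154118 (r = 0.957) and TMC7 (0.944), and probe 33239 was most like CDC23 (0.957) and GLUL (0.951). ZFP42 was most like SELENOK (0.967) and NDUFB3 (0.938). For POU5F1, probe 15132 was most like SRBD1 (0.947) and probe 40552 most like CORO1C (0.941), so the 2 probes shared none of their 5 nearest genes. LIN28A was most like MYCBP (0.938), the probe of a gene from the MYC network, and MYC was most like NSMCE4A (0.878). After the group means were taken off, the r of ZFP42 with SELENOK was 0.975 and that of LIN28A with MYCBP 0.904, whereas that of DPPA5 probe 27378 with TMC7 was 0.595.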

How the data were processed

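RNA of 12 pools of 5 porcine embryos was compared with a reference RNA pool on 2-colour EMPV1 arrays. The authors subtracted background and applied global loess within each array in FlexArray, and the deposited values are log2 ratios of sample (Cy5) over reference (Cy3), 24908 probes per array with 0 missing. They were used as deposited, with no normalization between arrays. Intensities, slides and scan batches were not given in the sources used here, so signal over background is unknown, and the number of arrays limits the precision. CT embryos were not analysed here. Probes were named by the platform table (10735 with a symbol, 14173 without), with 75 names updated by RefSeq accession and 2 by synonym (LIN28 to LIN28A and EIF2C2 to AGO2).

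A mean per group was fitted with limma 3.58.1 in R 4.3.3 (8 residual and 5.64 prior degrees of freedom), with Benjamini-Hochberg adjustment over all probes. A list gene counts as higher or lower if 1 or more of its probes passed, and list medians are over the mean of a gene's probes. The genes, the lists and their tests were chosen with earlier results of these data known. Besides the members, up to 4 called genes of the lowest p in each list and the 5 genes most like each probe were eligible to be named, and further list genes were named after their values were seen. The fit was repeated on ratios scaled to 1 spread and on quantile-normalized ratios, with array weights, with robust moderation, with a block for the replicate number, on the compared groups by themselves, on averaged probes, on the 50% of probes with the most variance, with the fold limit dropped, and without each array. PA HB and PA XB arrays of the same number deviated together (r = 0.22 to 0.454 in 3 of 3 pairs), so these numbers were taken as pairs in 1 further fit. That blocked fit of the PA arrays, added after the data were seen, called 0 of 7 probes. The main fit did not use pairs. Arrays of different origin, or of different number, reached like values (0.325 for PA XB 1 with IVV HB 1, 0.32 for IVV HB 1 with IVV XB 2). Whether the numbers mark true pairs is therefore not known. The fit was also run on simulated data with independent noise and the same spread of a probe on every array. That run cannot show how differences in array spread or shared deviations affect the results. Plots were made in Python 3.11.15 with matplotlib 3.10.9.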

Additional observations from a re-analysis of the deposited data

Results flagged for a closer look

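IL6 was the gene of the lists whose hatching change differed between PA and IVV embryos by the test of the difference itself: the change from XB to HB was 2.66 higher on the log2 scale in PA than in IVV embryos. IL6 differed by -0.47 between PA HB and PA XB (limma adjusted p = 0.823) and by -3.13 between IVV HB and IVV XB (1.07e-04). The cause was not tested.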

How the results depend on the processing

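Of 7 probes, 1 was called between PA HB and IVV HB, against 2 with arrays of the same spread, 2 with array weights, 2 without the limit on the fold change, 0 after quantile normalization, 0 with averaged probes and 0 to 1 with an array left out. Between PA XB and IVV XB it was 2, against 1 after quantile normalization (ZFP42), 3 with arrays of the same spread and without the limit (ZFP42 added), 3 with the block, array weights, the more variable 50% of probes or the compared groups alone (POU5F1 probe 40552 added) and 2 to 3 with an array left out, and over both stages 2, against 1 after quantile normalization (ZFP42) and 4 without the limit. The replicate number as a block gave 1, 3 and 2 in these comparisons and changed no call in the hatching comparisons (0 each). In the other pairs of groups of 1 stage or 1 origin, r of arrays of the same number ran from -0.151 to 0.225. It was over 0.1 for 2 of 3 numbers in hatched blastocysts of the 2 origins. In expanded blastocysts this held for 0 of 3 numbers, and across the 2 stages of IVV embryos for 1 of 3. A shared deviation in these pairs is thus neither shown nor excluded. Where stage and origin both differed, r of the same number reached 0.325 (PA XB 1 with IVV HB 1) and 0.259 (PA XB 2 with IVV HB 2).

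None of the values that changed sign was called after the change. Between PA HB and IVV HB, DPPA5 probe 33239 had -0.05 after quantile normalization, POU5F1 probe 40552 had -0.66 (same spread), -1.02 (quantile), -0.04 (array weights), -0.42 (averaged probes) and -0.70 to 0.41 with an array left out, and PA2G4 had -0.46 with averaged probes. Averaged probes gave POU5F1 0.50 (PA XB against IVV XB), 0.04 (both stages) and 0.22 (IVV hatching), and DAB2 0.07 (PA XB against IVV XB) and 0.05 (both stages). Over both stages POU5F1 probe 40552 had -0.50 after quantile normalization. In the hatching comparisons MYC had -0.08 (IVV), -0.10 (PA), -0.09 (both origins) and -0.02 (difference) with array weights, and 0.00 and -0.01 for the difference under the 2 scalings. In PA hatching LIN28A had 0.04 with array weights and DPPA5 probe 27378 had 0.04 with array weights and 0.00 after quantile normalization; DPPA5 probe 33239 had -0.06 over both origins after quantile normalization. With an array left out, hatching values that crossed 0 were MYC -0.20 to 0.33 (IVV), -0.29 to 0.41 (PA), -0.11 to 0.24 (both origins) and -0.36 to 0.34 (difference), LIN28A -0.41 to 0.22 (PA) and -0.18 to 0.44 (difference), DPPA5 probe 27378 -0.32 to 0.07 (PA), probe 33239 -0.09 to 0.21 (both origins), POU5F1 probe 15132 -0.18 to 0.03 (IVV) and ZFP42 -0.29 to 0.10 (PA). The cause was not tested.

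Of all values of the 7 probes under alternatives, 782 kept direction and call, 41 changed sign, 14 gained a call and 10 lost one. Signal over background was not given, and the 3 arrays per group limit what these comparisons can show.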
